A study of Homo sapiens with 54 samples.

Results

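The 10 genes described here encode the ATR-CHK1 branch of the DNA damage checkpoint and its nearest relatives: *ATR*, *ATRIP*, *TOPBP1*, *RAD17*, *CLSPN*, *TIMELESS*, *CHEK1*, *ATM*, *CHEK2* and *WEE1*. They were taken as a named list, by symbol, from tables of 55906 gene rows for each of 4 cell lines, and the rule for the list uses no measured value. All 10 had a row in every table and all 10 passed the filter on low expression in every cell line.

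When a replication fork stalls, single-stranded DNA coated with replication protein A recruits ATR through its partner ATRIP. RAD17 loads the 9-1-1 clamp, TOPBP1 on that clamp activates ATR, and *CLSPN* (Claspin), held at the fork with TIMELESS, presents the kinase CHK1 (the product of *CHEK1*) to ATR. CHK1 then restrains the CDC25 phosphatases while WEE1 phosphorylates CDK1, so that mitosis waits, and ATM with CHK2 (the product of *CHEK2*) forms the parallel branch that answers double-strand breaks. *CHEK1* is also a known splicing target of the paralogs TRA2A and TRA2B, SR-like proteins that bind purine-rich exon sequences and favor exon inclusion.

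The study asked how far *TRA2A* and *TRA2B* replace one another. A549 and NCI-H23 are lung adenocarcinoma lines, and all of their libraries came from cells with Zim3-dCas9, a nuclease-dead Cas9 fused to a repressor that silences the promoter a guide directs it to. They received control guides (Control KD), *TRA2A* guides (*TRA2A* KD), *TRA2B* guides (*TRA2B* KD) or guides against both genes (*TRA2A/B* DKD), and RNA was collected after 5 days. LN229 and LN319 are glioblastoma lines, and all of their libraries came from cells with cutting Cas9, collected after 7 days. Cells carrying luciferase (Luc) received guides for the control loci (Luc Control KO), for *TRA2A* or for *TRA2B*. Cells carrying a *TRA2B* cDNA (TRA2B-OE) received guides for the control loci or for *TRA2A*. No source used here says that the knockout cells were clones. Control guides targeted safe-harbor loci. The paper describes NCI-H23 and LN319 as dependent on *TRA2A* for growth, and A549 and LN229 as independent of it.

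Each of the 18 conditions had 3 libraries, 54 in all, of polyadenylated RNA. Values are in TPM, the share of all transcripts in a library, which are corrected for transcript length and keep no record of depth. Differences are log2 fold changes of scaled TPM with a pseudocount of 0.1, with their standard errors (SE). A gene is called at an adjusted p under 0.05 in limma, with Benjamini-Hochberg adjustment over all genes tested in the comparison. Nothing in the labels says that the 3 replicates were separate cultures, so p-values measure only the spread between these libraries. With 3 libraries against 3, an exact permutation test of 1 gene cannot go below 0.1.

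The targeted genes followed the labels. Percents of control are from TPM as deposited, before scaling, and differ in size from the log2 fold changes of scaled TPM. *TRA2A* fell to 6.54% to 20.5% of control in the lung lines wherever it was targeted, and *TRA2B* to 9.68% to 25.2%. In the glioblastoma lines *TRA2A* RNA fell to 62.9% of control in LN229 and 33.2% in LN319, and *TRA2B* RNA to 66.0% and 35.1%. These RNA levels do not measure loss of protein. *TRA2A* RNA also moved when *TRA2B* was targeted, to 155% of control in LN229 Luc *TRA2B* KO (log2 fold change 0.58, adjusted p = 0.00648) and 149% in NCI-H23 *TRA2B* KD (0.46, adjusted p = 0.0259), but to 84.6% in LN319 Luc *TRA2B* KO (-0.35, adjusted p = 0.00377). In TRA2B-OE cells *TRA2B* rose to 374% of its Luc level in LN229 and 873% in LN319. In LN229 TRA2B-OE the *TRA2A* KO left *TRA2A* RNA at 87.2% of its control, a difference that did not pass the test (adjusted p = 0.068). Of lineage markers, *KRT8* and *KRT18* were abundant in both lung lines, but *EPCAM* was at 2.76 and 1.28 TPM and *NKX2-1* at 0 and 0.733 TPM in A549 and NCI-H23 controls. The glioblastoma lines had *VIM*, *CD44* and *SOX2*, with *GFAP* at 2.84 and 2.13 TPM, but *VIM* was abundant in A549 and NCI-H23 too (1110 and 1600 TPM). LN319 had *OLIG2* at 0.0101 TPM and the epithelial gene *CDH1* at 123 TPM. It also had *NKX2-1* at 7.98 TPM and *NES* at 7.55 TPM, against 0.00819 and 273 TPM in LN229.

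Some control libraries stood apart from their groups, and results that rest on them are given with and without them. Replicate 3 of A549 Control KD had a median Pearson correlation of log2 scaled TPM of 0.837 with the other A549 libraries, where every other library had at least 0.872. In LN229, replicate 1 of Luc Control KO correlated better with the 3 Luc *TRA2B* KO libraries (0.957 to 0.960) than with its own group (0.940 to 0.949). That library, replicate 1 of TRA2B-OE Control KO and all 3 Luc *TRA2B* KO libraries had a summed level of 41 S-phase genes between 1897 and 2114 TPM, and the other 10 LN229 libraries had 2580 to 3299 TPM. In each of the 5 LN229 conditions replicate 1 was the lowest of its 3 libraries in this sum, in *CLSPN* and in *TIMELESS*. Replicate 1 of TRA2B-OE Control KO correlated less with the Luc *TRA2B* KO libraries (0.940 to 0.942) than with its own group (0.943 to 0.947).

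*CHEK1* (ENSG00000149554.15) maps to the plus strand of chromosome 11 in hg38, between 125625163 and 125676255. Its exon 3 is shown because it is the cassette that was tested by RT-PCR in the study as TRA2-dependent. It is a coding exon of 224 bases at chr11:125627607-125627830 in the MANE transcript, read here 5′ to 3′ from the Gencode v44 transcript sequence. The capitals mark the word AGAA, part of the purine-rich sequence that TRA2 proteins bind.

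CHEK1 exon 3: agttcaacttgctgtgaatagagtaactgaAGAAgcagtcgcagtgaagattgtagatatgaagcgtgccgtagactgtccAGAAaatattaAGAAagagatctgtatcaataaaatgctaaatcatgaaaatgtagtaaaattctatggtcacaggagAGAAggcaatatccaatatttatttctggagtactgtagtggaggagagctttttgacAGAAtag

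The exon held AGAA 5 times and GAA 10 times on the transcript strand, where every AGAA contains a GAA. Of 10551 internal coding exons of 200 to 250 bases in MANE transcripts, 75.2% held AGAA at least once, and 7.25% reached the density of *CHEK1* exon 3 (2.23 per 100 bases, against a median of 0.498). The length of 224 bases is not a multiple of 3. Read from the annotated start codon, the transcript without exon 3 reached its first in-frame stop at codon 29, in exon 4, where the full transcript stopped at codon 477. The study's RT-PCR primers for this event lie in exons 2 and 4, and give a product of 317 bases with exon 3 and 93 bases without it. They are shown because they define the event.

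CHEK1 forward primer: tgccctttgtggaagactgg
CHEK1 reverse primer: ctgagcatctggttcaggca

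By RT-PCR, the paper found that *TRA2A* KD in dependent lines raised skipping in *CHEK1* about as much as loss of both paralogs. Effects in independent lines were minimal, and *TRA2B* overexpression rescued the event in NCI-H23 and LN319. Gene-level TPM adds up all transcripts of a gene, so the *CHEK1* values below are levels of RNA and do not measure how often exon 3 was kept.

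In control cells the fork protein *TIMELESS* and the *ATR* activator *TOPBP1* were among the most abundant of the 10 genes, and *ATR* and *ATRIP* among the least. In NCI-H23 the order was *TIMELESS* at 80.4 ± 4.51 TPM (SD, n = 3), *TOPBP1* at 62.3 ± 6.74, *CHEK1* at 42.4 ± 3.40 and *CLSPN* at 36.7 ± 2.40 TPM. From *CLSPN* down through *ATM*, *CHEK2*, *WEE1* and *RAD17*, each gene overlapped the next in the order. *ATR* at 10.8 ± 1.5 TPM and *ATRIP* at 7.69 ± 1.07 TPM lay apart below them. LN319 had *WEE1* on top at 87.2 ± 1.64 TPM and *ATR* at the bottom at 2.46 ± 0.0797 TPM, and among the neighbors in its order only *CHEK1* and *ATM* overlapped. In A549 only *TIMELESS* lay apart from the gene after it, and in LN229 every gene overlapped its neighbor.

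Between cell lines, which come from separate tables and were not tested, *RAD17* was the most even of the 10 genes, with control means from 15.8 TPM in A549 to 20.3 TPM in LN319. *WEE1* ranged 3.87-fold, from 22.6 TPM in NCI-H23 to 87.2 TPM in LN319. *ATR* ranged 4.94-fold, from 2.46 TPM in LN319 to 12.2 TPM in A549, but that A549 mean rests on replicate 3, at 21.4 TPM beside 6.73 and 8.38 TPM.

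Loss of both paralogs lowered 5 of these genes in both lung lines, and loss of either paralog alone lowered none of them at the threshold. In the A549 *TRA2A/B* DKD 5 of the 10 genes fell and 0 rose, where 15.9% of all 16405 genes tested fell and 14.6% rose. In NCI-H23 7 of 10 fell and 1 rose, where 23.2% of 16293 genes fell and 20% rose. For the 10 genes the median log2 fold change was -0.58 (A549) and -0.56 (NCI-H23), beside 0.041 and 0.015 for all genes tested. The 5 that fell in both lines were *CLSPN*, *TIMELESS*, *TOPBP1*, *CHEK1* and *WEE1*. Without scaling the median of all genes moved to 0.11 in A549 and 0.17 in NCI-H23, the share of called genes that rose went from 47.8% to 57% and from 46.2% to 63%, and the 10 genes kept medians of -0.51 and -0.40.

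**Figure D1:**
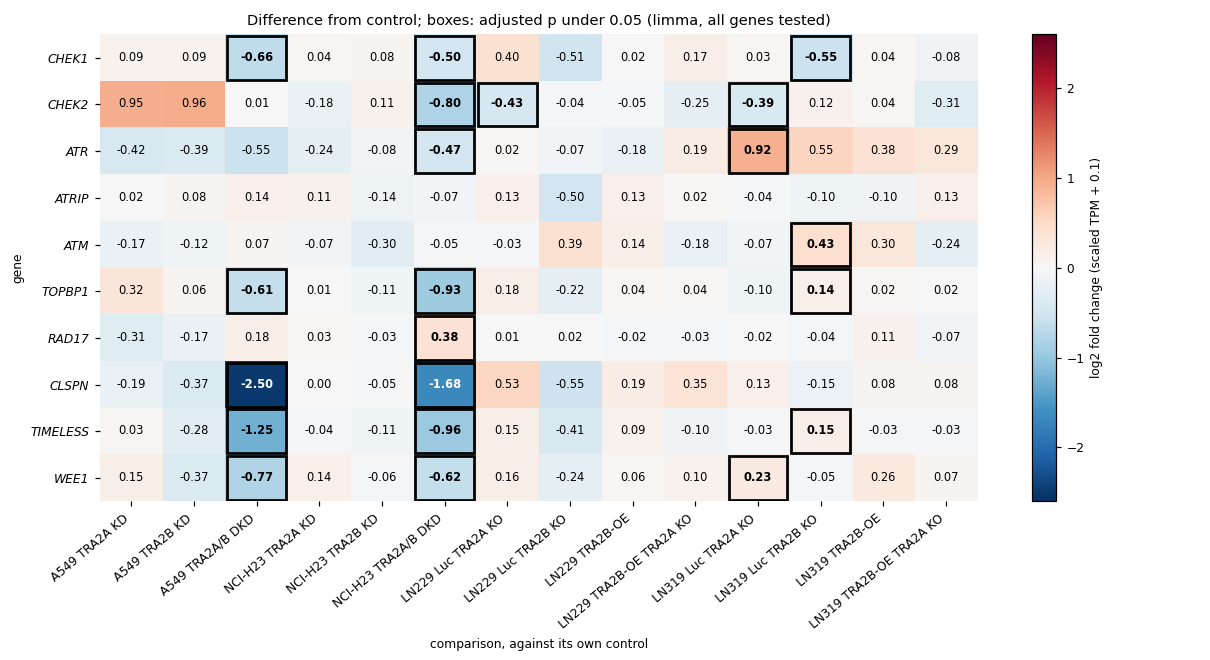
Log2 fold change of each of the 10 genes (rows) in each of the 14 comparisons with their own control (columns), as a color and as a number, with boxes where the adjusted p was under 0.05. The boxes gather in the columns of the A549 and NCI-H23 double knockdowns, where *CLSPN* has the lowest values at -2.50 and -1.68.

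*CLSPN*, the adaptor that brings CHK1 to *ATR*, fell most. In A549 it was at 14.1, 17.7 and 28.6 TPM in Control KD and at 3.46, 3.23 and 3.76 TPM in *TRA2A/B* DKD. The highest double-knockdown library thus lay far below the lowest control. The log2 fold change was -2.50 (SE 0.163, adjusted p = 2.63e-06), and -2.30 without control replicate 3. In NCI-H23 *CLSPN* went from 39.4, 35.99 and 34.7 TPM to 12.2, 12.3 and 13.6 TPM, a log2 fold change of -1.68 (SE 0.126, adjusted p = 2.50e-06). These groups did not overlap either. *CLSPN* is on chromosome 1 (35720218 to 35769978, minus strand).

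*TIMELESS*, which holds Claspin at the fork, fell beside it. Control libraries of A549 had 45.6, 46.4 and 61.4 TPM, and those of *TRA2A/B* DKD had 22.3, 22.9 and 21.8 TPM. The double-knockdown libraries sat close together and below every control (log2 fold change -1.25, SE 0.082, adjusted p = 2.66e-06). In NCI-H23 *TIMELESS* went from 76.1, 85.1 and 79.9 TPM to 45.4, 43.6 and 48.6 TPM, again with no overlap (-0.96, SE 0.0505, adjusted p = 2.10e-07).

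Of the genes that switch *ATR* on, *TOPBP1* fell in both lines and *RAD17* in neither. In A549 *TOPBP1* was at 27.9, 24.5 and 22.2 TPM in Control KD and 17.8, 15.1 and 18.2 TPM in *TRA2A/B* DKD (log2 fold change -0.61, SE 0.144, adjusted p = 0.00861). A fit without the single knockdowns lost this call (adjusted p = 0.0722). In NCI-H23 *TOPBP1* went from 59.5, 70.03 and 57.5 TPM to 36.1, 36.4 and 36.4 TPM (-0.93, SE 0.0906, adjusted p = 1.58e-05). No double-knockdown library reached a control in either line.

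*RAD17*, the clamp loader, was the only gene of the 10 to rise in a double knockdown. In NCI-H23 it went from 19.6, 19.5 and 21.0 TPM to 26.4, 30.1 and 31.0 TPM, so that all 3 treated libraries lay above all 3 controls (log2 fold change 0.38, SE 0.0969, adjusted p = 0.00839). In A549 its double-knockdown libraries were at 18.8, 17.6 and 17.9 TPM, inside the range of the controls from 11.4 to 21.3 TPM. The difference there was 0.18 with a 95% interval from -0.24 to 0.60 (adjusted p = 0.521), which includes the size seen in NCI-H23.

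*ATR*, the sensor kinase, was called in NCI-H23 and not in A549. *ATR* in NCI-H23 was at 9.71, 10.1 and 12.5 TPM in control and 9.95, 7.80 and 8.20 TPM in *TRA2A/B* DKD. It was called lower (log2 fold change -0.47, SE 0.152, adjusted p = 0.0288), although the groups overlapped in TPM as deposited, before scaling. The call was lost under 5 of 14 alternatives (adjusted p from 0.0176 to 0.118), among them the omission of control replicate 3 or of double-knockdown replicate 2 or 3. In A549 *ATR* was at 6.55, 9.48 and 7.06 TPM in *TRA2A/B* DKD, and the difference of -0.55 did not pass the test (adjusted p = 0.227). Without control replicate 3 it was -0.13. *ATRIP*, which carries *ATR* to single-stranded DNA, differed by 0.14 (95% interval -0.27 to 0.55) in A549 and -0.07 (-0.36 to 0.23) in NCI-H23, and neither was called. The *ATRIP* locus also overlaps *TREX1*, a nuclease gene, and reads that fit both were divided by estimation.

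*CHEK1*, the effector kinase, fell in both lines. A549 controls had 26.6, 23.1 and 24.6 TPM and *TRA2A/B* DKD had 15.8, 17.8 and 15.6 TPM, or 66.3% of control. The log2 fold change was -0.66 (SE 0.122, 95% interval -0.93 to -0.39, adjusted p = 0.00225). In NCI-H23 *CHEK1* went from 46.4, 40.5 and 40.4 TPM to 31.8, 33.8 and 34.5 TPM, or 78.7% of control (-0.50, SE 0.0948, 95% interval -0.71 to -0.29, adjusted p = 0.00156). The percents are from TPM as deposited and the log2 fold changes from scaled TPM, so they differ in size, more in NCI-H23. Every double-knockdown library was below every control in both lines. Every alternative kept both calls, with differences of -0.75 to -0.55 (A549) and -0.55 to -0.34 (NCI-H23).

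In the parallel branch, *CHEK2* fell in NCI-H23 and *ATM* in neither line. *CHEK2* in NCI-H23 went from 21.9, 29.1 and 28.5 TPM to 16.5, 14.2 and 20.0 TPM, with no overlap (log2 fold change -0.80, SE 0.119, adjusted p = 2.98e-04). In A549 *CHEK2* turned on 1 library. Control replicate 3 was at 1.67 TPM beside 11.5 and 10.9 TPM, while *TRA2A/B* DKD had 7.20, 5.53 and 6.38 TPM. With that library the difference was 0.01 (adjusted p = 0.995), and without it -0.96 (SE 0.195, adjusted p = 0.00333), so that 6 of 10 genes then fell in A549, where 20.1% of all genes fell and 17.3% rose. *ATM*, the kinase that responds to double-strand breaks, differed by 0.07 (95% interval -0.34 to 0.48) in A549 and by -0.05 (-0.39 to 0.28) in NCI-H23.

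*WEE1*, which holds *CDK1* inactive, fell in both lines. It was at 22.8, 22.2 and 34.6 TPM in the A549 controls and 14.3, 17.0 and 16.5 TPM in *TRA2A/B* DKD (log2 fold change -0.77, SE 0.137, adjusted p = 0.00172). In NCI-H23 it went from 22.2, 24.5 and 21.0 TPM to 15.7, 14.5 and 19.1 TPM (-0.62, SE 0.119, adjusted p = 0.00174). Neither pair of groups overlapped.

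**Figure D2:**
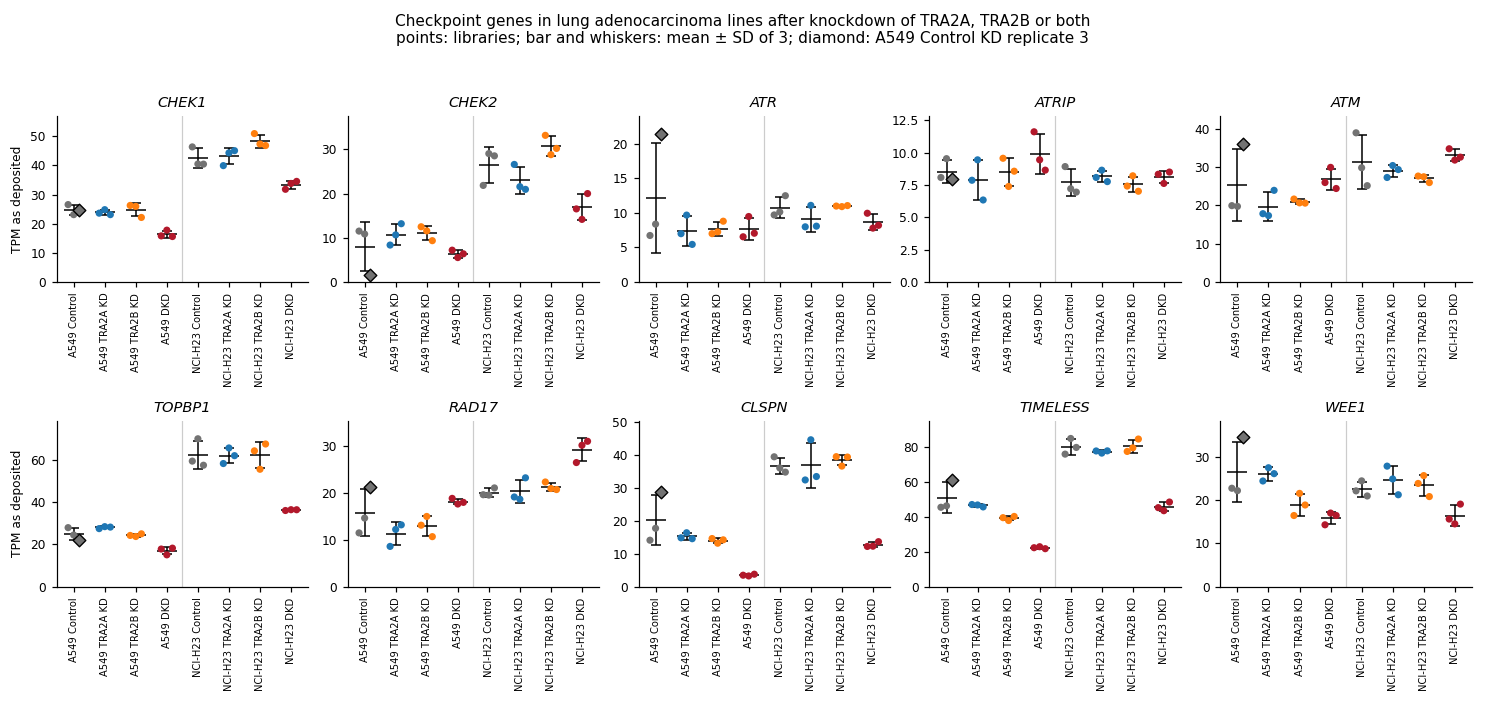
TPM as deposited (vertical axis, 1 panel per gene) in the 4 conditions of A549 and of NCI-H23 (horizontal axis), with a point for each library and the mean ± SD of 3. Red points, the double knockdown, lie below the gray control points for *CHEK1*, *TOPBP1*, *CLSPN*, *TIMELESS* and *WEE1* in both lines. The diamond is A549 Control KD replicate 3, which is lowest for *CHEK2* at 1.67 TPM and highest for *ATR* at 21.4 TPM.

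Genes of the cell cycle fell together with these checkpoint genes. Of 41 S-phase genes (a published cell-cycle list without *CLSPN*), 36 fell and 0 rose in the A549 *TRA2A/B* DKD (median log2 fold change -1.13), and 39 fell and 0 rose in NCI-H23 (-0.84). Of 54 G2/M genes, 45 and 48 fell and 0 rose. The summed S-phase level was 1832 to 1994 TPM in A549 controls and 883 to 971 TPM in *TRA2A/B* DKD, and 2381 to 2768 and 1425 to 1617 TPM in NCI-H23. A smaller share of cells in S phase and less RNA per cell cannot be told apart in these bulk libraries, and the part of cell-cycle state in the values of the 10 genes was not tested.

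For most of the genes that fell, the double knockdown went beyond the sum of the single knockdowns. This departure was tested as the double-knockdown difference minus both single differences. In A549 4 of 10 genes had a negative departure that was called, where 8.7% of all genes did and 6% had a positive one. In NCI-H23 6 of 10 had a negative departure, where 12.8% of all genes did and 8.23% had a positive one. Cell-cycle genes departed in the same way: negative departures were called for 32 of 41 S-phase genes in A549 and 35 in NCI-H23. For G2/M genes the count was 43 of 54 in each line. No gene of the 10 had a positive departure that was called in either line. *RAD17* came nearest in NCI-H23, at 0.38 (SE 0.137, adjusted p = 0.0722), a call under 5 of 19 alternatives, and departed by 0.65 (adjusted p = 0.132) in A549. Without scaling, positive departures made up 72.7% instead of 40.8% of those called in A549, and 49.5% instead of 39.1% in NCI-H23. All comparisons of a line share its control libraries.

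*CLSPN* departed by -1.94 (SE 0.230, adjusted p = 4.20e-04) in A549, where the single knockdowns gave -0.19 and -0.37, and by -1.64 (SE 0.178, adjusted p = 1.53e-04) in NCI-H23, where they gave 0.005 and -0.05. *TIMELESS* departed by -0.996 (SE 0.116, adjusted p = 3.93e-04) and -0.82 (SE 0.0714, adjusted p = 3.86e-05). *CHEK1* differed from control by 0.04 to 0.09 in the 4 single knockdowns, none of them called, and departed by -0.84 (SE 0.173, adjusted p = 0.00965) in A549 and -0.61 (SE 0.134, adjusted p = 0.00832) in NCI-H23. These 3 genes thus gave the same sign in both lines. *TOPBP1* departed by -0.998 and -0.83 (adjusted p = 0.00938 and 0.00128). *CHEK2* and *WEE1* had called departures in NCI-H23, of -0.73 (adjusted p = 0.0107) and -0.70 (adjusted p = 0.014). In A549 theirs were called only without control replicate 3, at -0.92 (adjusted p = 0.032) and -0.66 (adjusted p = 0.0203).

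**Figure D3:**
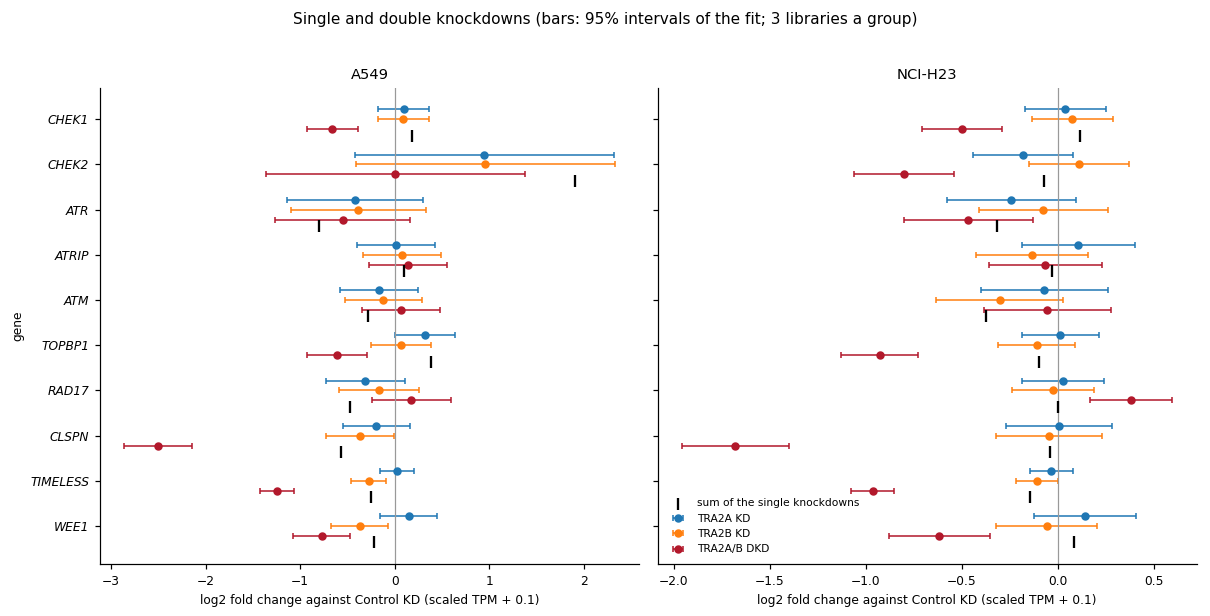
Log2 fold change against Control KD (horizontal axis) of each gene (vertical axis) in the single knockdowns and the double knockdown, with 95% intervals of the fit, in A549 and NCI-H23. Black ticks mark the sum of the single knockdowns. For *CLSPN*, *TIMELESS*, *TOPBP1* and *CHEK1* the red interval of the double knockdown lies wholly to the left of the tick in both lines, and the wide *CHEK2* intervals in A549 come with the control library at 1.67 TPM.

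The other genes of the pathway were followed as a list of 29 in 4 roles. In the A549 *TRA2A/B* DKD 20 of the 29 fell and 1 rose (23 and 1 without control replicate 3), and in NCI-H23 17 fell and 1 rose. All 7 cell-cycle targets of the checkpoint fell in A549 (*CDC25A*, *CDC25B*, *CDC25C*, *PKMYT1*, *CDK1*, *CDK2* and *CCNB1*), and all of these but *CDC25C* in NCI-H23. Of the 9-1-1 clamp and its loader 5 of 8 fell in A549 and 3 of 8 in NCI-H23. Of the single-strand DNA and fork group 3 and 4 of 6 fell, and of the double-strand break group 5 and 4 of 8.

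The gene with the lowest value in the list was *ETAA1*, a second activator of *ATR*, in both lines. It was at 6.06, 6.64 and 9.28 TPM in A549 controls and 2.05, 1.41 and 1.35 TPM in *TRA2A/B* DKD (log2 fold change -2.19, SE 0.216, adjusted p = 3.63e-05). In NCI-H23 it went from 5.59, 5.15 and 6.03 TPM to 2.20, 2.31 and 2.25 TPM (-1.42, SE 0.123, adjusted p = 6.64e-06). *PKMYT1*, the membrane-bound relative of *WEE1*, had log2 fold changes of -1.38 and -1.40, *CDK1* of -1.39 and -0.76, and *WDHD1*, a replisome scaffold, of -1.49 and -0.80. Others named by size were *CDC25C*, *CDC25B*, *MRE11A* and *RAD9A* in A549 (from -1.56 to -1.13) and *CDC25A*, *CDK2* and *RAD50* in NCI-H23 (from -1.15 to -0.79).

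*HUS1*, a subunit of the clamp that *RAD17* loads, was the single list member that rose, and it rose in both lines. Its mean went from 24.6 ± 2.13 to 47.1 ± 4.56 TPM in NCI-H23 (log2 fold change 0.78, SE 0.0834, adjusted p = 3.19e-05) and from 23.7 ± 4.35 to 35.6 ± 3.88 TPM in A549 (0.53, SE 0.174, adjusted p = 0.0411), with no overlap in either.

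Single knockdowns moved none of the 10 genes past the threshold. The calls were 0 of 10 in A549 *TRA2A* KD, 0 in A549 *TRA2B* KD, 0 in NCI-H23 *TRA2A* KD and 0 in NCI-H23 *TRA2B* KD, where 0.213%, 0.335%, 0.976% and 0.196% of all genes were called. At an unadjusted p under 0.05 the counts were 1, 3, 0 and 0. The nearest was *TIMELESS* in the A549 *TRA2B* KD, at 39.6, 38.0 and 40.3 TPM, below all 3 controls (log2 fold change -0.28, SE 0.082, adjusted p = 0.247). *CHEK1* in the NCI-H23 *TRA2A* KD was at 39.9, 44.3 and 45.1 TPM among controls of 40.4 to 46.4 TPM. Its 95% interval of -0.17 to 0.25 leaves out the drop in RNA level seen in the double knockdown, and says nothing of exon 3. None of the 29 list genes was called in a single knockdown.

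In LN319 Luc *TRA2B* KO, where *TRA2A* RNA was lower too, *CHEK1* fell while *ATM*, *TIMELESS* and *TOPBP1* rose. This was 1 of 10 lower and 3 higher, where 24.2% of 19303 genes fell and 18.5% rose, so that 4 of 10 were called beside 42.7% of all genes. *CHEK1* went from 40.1, 49.1 and 46.6 TPM in Luc Control KO to 35.8, 33.1 and 30.9 TPM in Luc *TRA2B* KO. The groups did not overlap (log2 fold change -0.55, SE 0.0931, adjusted p = 5.48e-04), and the call held under every alternative, at -0.63 to -0.44.

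*ATM* rose in the same libraries from 38.5, 40.6 and 34.7 TPM to 57.4, 54.1 and 53.9 TPM (log2 fold change 0.43, SE 0.102, adjusted p = 0.00452), also under every alternative. The rises of *TIMELESS* (0.15, SE 0.0446, adjusted p = 0.0169) and *TOPBP1* (0.14, SE 0.0519, adjusted p = 0.0459) were small. They lost their call under 3 and 8 of 14 alternatives, and *TIMELESS* ranged from 0.08 to 0.28 and *TOPBP1* from 0.07 to 0.27 across them. Both lost it without Luc Control KO replicate 2 or without Luc *TRA2B* KO replicate 1. *TIMELESS* was nonetheless higher in 3 of 3 libraries, at 62.4, 62.5 and 60.3 TPM against 51.8, 50.9 and 52.1 TPM. *CLSPN* differed by -0.15 (adjusted p = 0.0864) and its groups overlapped in TPM as deposited, before scaling. Without scaling the median of all genes was 0.12 instead of 0.016, and 56.4% instead of 43.3% of the genes called were higher.

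The pathway list fell in part in these libraries, with 12 of 29 lower and 3 higher. The named falls were *RFC3* (-0.56, adjusted p = 0.00122) and *RFC2* (-0.46), subunits of the clamp loader, the damage-marked histone gene *H2AFX* (-0.56) and *RPA2* (-0.49), a subunit of replication protein A. *RAD9A*, *MDC1* and *TP53BP1* rose. Of the S-phase genes 19 of 41 fell and 3 rose, and of the G2/M genes 37 of 54 fell and 3 rose, and their part in the *CHEK1* value was not tested. Mitochondrially encoded genes made up 18.3% to 20.6% of TPM in Luc *TRA2B* KO against 12.1% to 12.8% in Luc Control KO, and the part of this share in these values was not tested.

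Knockout of *TRA2A* lowered *CHEK2* in both glioblastoma lines. In LN319 Luc cells *CHEK2* went from 27.4, 24.7 and 25.4 TPM to 18.3, 21.7 and 17.6 TPM (log2 fold change -0.39, SE 0.108, adjusted p = 0.0298). In LN229 Luc cells it went from 22.6, 29.9 and 31.2 TPM to 21.3, 21.2 and 18.2 TPM (-0.43, SE 0.109, adjusted p = 0.0484). Both calls are near the threshold. In LN319 the call was lost under 5 of 14 alternatives (adjusted p from 0.0124 to 0.106), including the omission of replicate 1 or 3 of either group, with differences of -0.49 to -0.34 over all single omissions. In LN229 it was lost under 7 of 15 (0.00398 to 0.248), including the omission of Luc Control KO replicate 2 or 3 or of any *TRA2A* KO library, with differences of -0.58 to -0.36. Without Luc Control KO replicate 1, the control with the low S-phase sum, the LN229 value was -0.58 (adjusted p = 0.0134).

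The same comparison with *TRA2B* overexpressed pointed the same way without passing the test. *CHEK2* was at 25.1, 27.5 and 32.3 TPM in LN319 TRA2B-OE Control KO and 23.2, 21.4 and 20.8 TPM in TRA2B-OE *TRA2A* KO (-0.31, adjusted p = 0.153). In LN229 it was at 28.9, 27.3 and 26.4 TPM and 24.4, 24.1 and 22.6 TPM (-0.25, adjusted p = 0.192). In all 4 of these comparisons, each with its own controls, the 3 *TRA2A* KO libraries lay below the 3 controls. The share of all genes that separate in this way was not counted, so the tally adds no support to the calls. The difference between Luc and TRA2B-OE responses was 0.08 in LN319 (95% interval -0.25 to 0.41) and 0.18 in LN229 (-0.15 to 0.51), or 0.33 without Luc Control KO replicate 1 (0.11 to 0.56, adjusted p = 0.482), and was not called. In the *TRA2A* KD of the lung lines *CHEK2* overlapped its controls. Reads of *CHEK2* can be shared with its pseudogene copies, of which the highest, *CHEK2P2*, was at 1.45 TPM or less in control libraries.

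*ATR* and *WEE1* rose in LN319 Luc *TRA2A* KO. With *CHEK2* this made 1 of 10 lower and 2 higher, where 7.25% of all genes fell and 7% rose (without scaling, 33.9% instead of 49.1% of the genes called were higher). *ATR*, scarce in this line, went from 2.55, 2.41 and 2.42 TPM to 3.61, 5.67 and 4.82 TPM (log2 fold change 0.92, SE 0.211, adjusted p = 0.0122) and was called under each of the 13 alternatives that kept it, at 0.74 to 1.11. At a minimum of 5 TPM it was not tested. *WEE1* went from 85.4, 88.2 and 88.2 TPM to 103.5, 98.0 and 95.9 TPM (0.23, SE 0.0692, adjusted p = 0.0466), a call lost under 10 of 14 alternatives, each single omission among them (0.20 to 0.25, adjusted p up to 0.212). Neither treated group touched its controls. The mitochondrial share was 13.2% to 15.03% in these treated libraries, above the 12.1% to 12.8% of their controls, and its part was not tested. *CHEK1* did not follow: it was at 44.8, 41.9 and 48.2 TPM among controls of 40.1 to 49.1 TPM (0.03, 95% interval -0.17 to 0.24). In the list of 29, *ETAA1* (-0.60) and *CDC25B* (-0.45) fell and *TIPIN* (0.51), the partner of *TIMELESS*, and *HUS1* (0.38) rose.

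*ATR* was also higher than in Luc Control KO in the other LN319 conditions measured against it, though not called. It had 3.70, 3.71 and 4.45 TPM in Luc *TRA2B* KO (0.55, adjusted p = 0.051) and 3.09, 3.77 and 3.50 TPM in TRA2B-OE Control KO (0.38, adjusted p = 0.276). These comparisons share the same 3 control libraries, in which *ATR* spanned only 2.41 to 2.55 TPM.

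**Figure D4:**
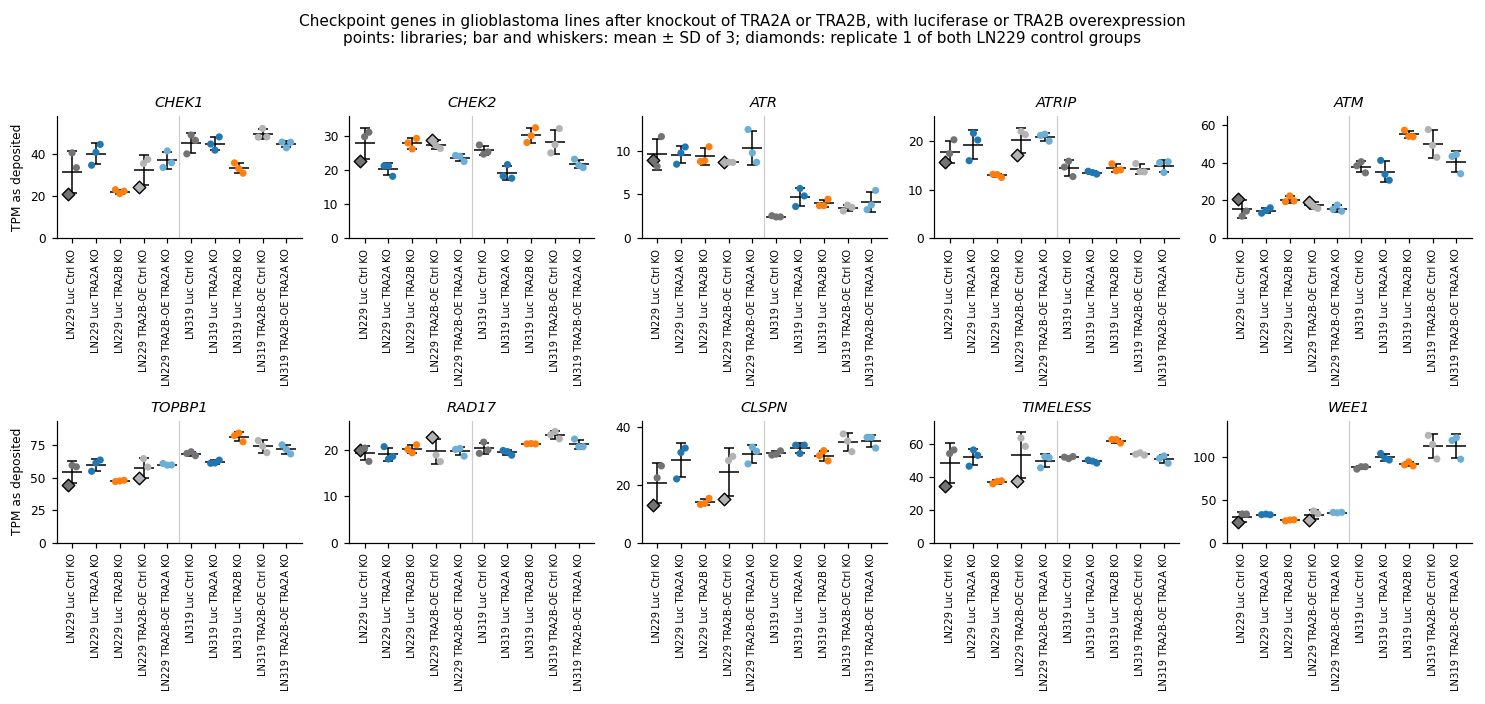
TPM as deposited (vertical axis, 1 panel per gene) in the 5 conditions of LN229 and of LN319 (horizontal axis), with a point for each library and the mean ± SD of 3. *CHEK1* is lower in LN319 Luc *TRA2B* KO (30.9 to 35.8 TPM) than in its control, *ATM* higher (53.9 to 57.4 TPM), and *CHEK2* is lower in each *TRA2A* KO group than in the control before it. Diamonds mark replicate 1 of both LN229 control groups, with *CHEK1* at 20.8 and 24.5 TPM.

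In LN229 the answer for *TRA2B* KO depended on a single control library. With all libraries 0 of 10 genes were called, where 0.557% of 18490 genes were. At an unadjusted p under 0.05 in limma there were 3 of 10, beside 4308 of the 18490 genes. *CHEK1* was at 23.1, 21.2 and 22.3 TPM in Luc *TRA2B* KO and at 20.8, 40.6 and 33.6 TPM in Luc Control KO, so that only replicate 1 kept the groups from separating (log2 fold change -0.51, adjusted p = 0.198). Without that library 6 of 10 fell and 1 rose, where 12.1% of all genes fell and 8.55% rose. *CLSPN* was then at -0.85 (adjusted p = 0.0388), *CHEK1* at -0.79 (0.0145), *TIMELESS* at -0.64 (0.0293), *ATRIP* at -0.60 (0.0132), *WEE1* at -0.41 (0.0252) and *TOPBP1* at -0.37 (0.0272). *ATM* rose by 0.60 (adjusted p = 0.00731). With and without the library, *ATM* and *CHEK1* had the sign they had in LN319, while *TIMELESS* and *TOPBP1* had the opposite one. With all libraries none of these values was called in LN229, and the differences between lines were not tested. Of the list of 29, 13 fell and 1 rose without the library and 0 were called with it, and of the 41 S-phase genes 27 fell and 0 rose without it and 0 were called with it. The library was left out for its low S-phase sum and its likeness to the Luc *TRA2B* KO libraries. Its median correlation with its own group, 0.944, was close to the 0.946 of replicate 3, and no label gives a reason to remove it. Leaving out a control that resembles the treated group widens this same comparison, so the calls without it are partly set by that choice.

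*TRA2A* KO in LN229 left the genes other than *CHEK2* uncalled, so the count was 1 of 10, where 3.79% of all genes were called, or 701 genes, which became 35 without Luc *TRA2A* KO replicate 3. *CLSPN* and *CHEK1* were higher on average, by 0.53 and 0.41 (adjusted p = 0.299 and 0.317), and by 0.22 and 0.12 without control replicate 1. None of the 29 list genes was called.

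Overexpression of *TRA2B* called none of the 10 genes in either line, where 1.03% of genes in LN229 and 4.3% in LN319 were called. At an unadjusted p under 0.05 there were 0 and 2, beside 2638 of 18490 genes in LN229 and 4826 of 19303 in LN319. The largest difference that was close to the threshold was *WEE1* in LN319, at 124.6, 114.0 and 97.1 TPM against 85.4, 88.2 and 88.2 TPM (0.26, SE 0.0692, adjusted p = 0.0511). It passed under 5 of 14 alternatives, one of them the omission of TRA2B-OE Control KO replicate 3. *TRA2A* KO within TRA2B-OE called 0 of 10 in LN229 and 0 of 10 in LN319, where 6.05% and 2.81% of genes were called. At an unadjusted p under 0.05 there were 1 and 2, beside 4100 of 18490 genes in LN229 and 3470 of 19303 in LN319.

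The change in the response to *TRA2A* KO that came with TRA2B-OE, tested as a difference of differences, was called for 0 of 10 genes in each line. The share among all genes was 0% in LN229 and 0.0207% in LN319. No gene of the 10 had an unadjusted p under 0.05, where 1068 of 18490 and 1530 of 19303 genes did. The largest was *ATR* in LN319, at -0.63 (95% interval -1.28 to 0.01, adjusted p = 0.644). In the list of 29, *RNF8* (-0.27) was lower in LN319 TRA2B-OE and *ETAA1* (-0.29, adjusted p = 0.049) was lower in LN319 TRA2B-OE *TRA2A* KO, and no other was called in these comparisons.

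Over all libraries of a line, the gene of the 10 with the highest mean r with *CHEK1* was *CLSPN*, with Pearson r of 0.86 and 0.95 in the lung lines A549 and NCI-H23 (12 libraries each) and 0.94 and 0.75 in LN229 and LN319 (15 each, log2 scaled TPM). In A549 both *TIMELESS* and *TOPBP1* had a higher r with *CHEK1* than *CLSPN* did, and in LN229 *TOPBP1* did. *TIMELESS* and *TOPBP1* had r of 0.89 to 0.96 with *CHEK1* in 3 lines but -0.73 and -0.54 in LN319. There *CHEK1* was lower after *TRA2B* KO, and the small rises of *TIMELESS* and *TOPBP1* lost their call under 3 and 8 of 14 alternatives. The part of these changes in r was not tested. *ATM* had a negative r in 3 lines and 0.06 in NCI-H23. These are descriptions, since libraries of the same condition make up the points. Among 13382 genes tested in all 4 lines, those with the highest mean r with *CHEK1* were *DLAT* (0.938), *TPM3* (0.923), *YWHAH*, *PKM* and *PPM1G* (0.920 each).

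**Figure D5:**
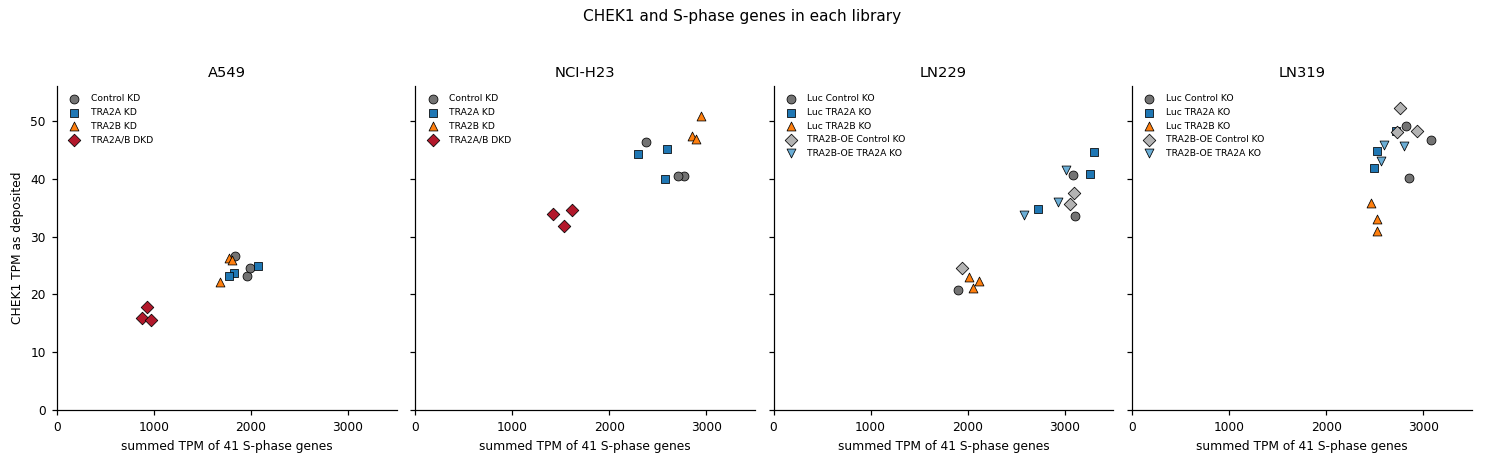
*CHEK1* TPM (vertical axis) against the summed TPM of 41 S-phase genes (horizontal axis) in every library of the 4 lines, with symbols for the conditions. The double-knockdown diamonds are lowest on both axes in A549 and NCI-H23. In LN229 replicate 1 of both control groups (1897 and 1944 TPM) lies near the Luc *TRA2B* KO triangles (2010 to 2114 TPM), to their left. In LN319 the Luc *TRA2B* KO triangles are lower for *CHEK1* at S-phase sums of 2460 to 2524 TPM. These sums partly overlap those of the Luc *TRA2A* KO squares at 2492 to 2719 TPM.

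Promoter sequence was available in the RefSeq table for 9 of the 10 genes, in 15 windows of 300 bases. Windows were searched on both strands for the E2F words TTTCCCGC, TTTCGCGC, TTTGGCGC and TTTGCCGC, since E2F factors drive many S-phase genes. A word was found in 3.31% of all 35116 windows in the table. That share is per window, and a gene of the 9 had up to 3 windows. Only 2 of the 9 genes had a word, *CLSPN* and *TOPBP1*, in 1 window each. *CHEK1* and *TIMELESS*, which also fell in both double knockdowns, had none. The 2 windows with a word are shown. They are in GRCh38.p14 at chr1:35769929-35770228 and chr3:133661892-133662191, both on the minus strand, with the word, on the opposite strand in both, in capitals.

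CLSPN promoter: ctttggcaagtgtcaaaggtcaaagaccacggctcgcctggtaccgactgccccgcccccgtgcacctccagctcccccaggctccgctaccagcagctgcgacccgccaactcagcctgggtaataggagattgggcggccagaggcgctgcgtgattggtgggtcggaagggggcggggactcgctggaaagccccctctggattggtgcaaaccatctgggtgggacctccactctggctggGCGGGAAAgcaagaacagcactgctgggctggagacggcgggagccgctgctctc
TOPBP1 promoter: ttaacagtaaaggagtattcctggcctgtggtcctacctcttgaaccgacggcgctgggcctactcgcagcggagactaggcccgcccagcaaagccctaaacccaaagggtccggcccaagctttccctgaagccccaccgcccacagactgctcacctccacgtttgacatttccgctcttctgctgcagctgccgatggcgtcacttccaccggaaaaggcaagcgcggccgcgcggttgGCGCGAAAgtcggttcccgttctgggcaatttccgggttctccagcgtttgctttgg

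A match of letters is no evidence of binding, and its absence from the windows of *CHEK1*, *TIMELESS*, *CHEK2*, *ATR*, *ATRIP*, *ATM* and *RAD17* says only that these words do not occur there.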

How the data were processed

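RNA-seq libraries of 54 samples in 18 conditions of 3 replicates were used. The authors deposited 1 table of gene-level TPM for each of 4 cell lines. The methods of the study name kallisto (v0.48.0) with Gencode v34 transcripts, hg38, and the deposited TPM are not scaled between libraries. The submitters' processing notes also name STAR 2.7.3, without its role, and splicing is not analysed here. TPM keep no depth, and the spread of the 3 replicates stands for their precision.

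A limma 3.58.1 model (statmod 1.5.0, R 4.3.3) was made for each line with all its libraries. The filter kept a gene that reached 1 TPM in 4 or more libraries, which left 16293 to 19303 genes. Libraries were scaled to one another by trimmed means of log ratios, without weights (trims of 30% and 5%), and modeled as log2(TPM + 0.1), which understates the change of low genes, with variance following mean expression. Two-sided p-values were adjusted (Benjamini-Hochberg) across the genes of a comparison, and the limma-voom fit of the authors needs counts and was not repeated. The fit was tried on simulated data for each comparison. The simulated noise was independent for each gene, with no shift shared by a whole library, so no conclusion about libraries that stand apart is drawn from it. TPM levels, percents of control and overlaps between groups are from TPM as deposited, before scaling. The tables of different lines were not tested against each other.

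The 14 comparisons, 4 differences of differences, the 10 genes, the pathway list of 29 and the cell-cycle lists (Seurat 5.3.0) were chosen with earlier results of these data known. The text names all 10 genes, the 8 list genes of largest fold change without overlap in each double knockdown, up to 4 called list genes elsewhere and the 5 genes most like *CHEK1*. *HUS1* in A549, and *RAD9A*, *MDC1*, *TP53BP1*, *CDC25A* and *CCNB1* where only their direction is given, were named after their values were seen. Exon positions came from Gencode v44 on hg38, promoters from RefSeq, and the version behind the deposited symbols was not settled from the values. The labels tie no replicate number to a shared batch, and over all genes same-numbered libraries of different conditions were not treated as pairs. Settings tried were pseudocounts of 0.5 and 1, filters of 0 and 5 TPM, TPM as deposited, quantile normalization, only the groups compared, the replicate block, each library left out and, added after the data were seen, both LN229 control replicates 1 left out. Figures were drawn with matplotlib.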

Additional observations from a re-analysis of the deposited data

Results flagged for a closer look

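Most of the results below were set apart because the effect of losing 1 paralog differed, in a test of the difference itself, from its effect after loss of the other. The value is the log2 difference of *TRA2A/B* DKD from the sum of the single knockdowns, from limma with adjustment over all genes. In A549 it was -1.94 for *CLSPN* (adjusted p = 4.20e-04), -0.996 for *TIMELESS* (3.93e-04), -0.998 for *TOPBP1* (0.00938) and -0.84 for *CHEK1* (0.00965). In NCI-H23 it was -1.64 for *CLSPN* (adjusted p = 1.53e-04), -0.82 for *TIMELESS* (3.86e-05), -0.83 for *TOPBP1* (0.00128), -0.61 for *CHEK1* (0.00832), -0.73 for *CHEK2* (0.0107) and -0.70 for *WEE1* (0.014). Departures of this sign were called in 8.7% and 12.8% of all genes in A549 and NCI-H23. They were also called in 78% and 85.4% of the S-phase genes. For the G2/M genes the share was 79.6% in each line, and for the pathway list 55.2% in each line. *TRA2A*, the paralog that was not targeted, was above all 3 controls in every LN229 Luc *TRA2B* KO library and below all 3 in every LN319 one, and the log2 fold changes differed by 0.93, a difference between lines that was not tested. With all libraries none of the 10 genes lay above its controls in 1 line and below them in the other under the same perturbation. Without LN229 Luc Control KO replicate 1, *TIMELESS* (35.6, 37.0 and 37.4 TPM against 53.9 and 56.1 TPM) and *TOPBP1* (47.1, 47.5 and 48.1 TPM against 59.6 and 58.5 TPM) were lower in LN229 Luc *TRA2B* KO and higher in that of LN319, which was not tested either. Groups of 3 libraries are too small to test for a single outlying library.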

How the results depend on the processing

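Of the 31 called values of the 10 genes, over the 14 comparisons and 4 differences of differences, 0 changed sign under any alternative, and in 445 of 484 refits the call held. The 39 losses were in 7 values: *CHEK2* and *WEE1* in LN319 Luc *TRA2A* KO, *CHEK2* in LN229 Luc *TRA2A* KO, *TOPBP1* and *TIMELESS* in LN319 Luc *TRA2B* KO, *ATR* in the NCI-H23 *TRA2A/B* DKD and *TOPBP1* in the A549 *TRA2A/B* DKD. Of 2281 refits of the 149 values that were not called, 34 gained a call in the same direction, 176 changed sign without a call and 1 changed sign with one: *CHEK2* in the A549 *TRA2A/B* DKD, at -0.96 without Control KD replicate 3 (from -0.96 to 0.53 with each library left out). The number of the 10 genes called changed by more than 1.5 times in 6 comparisons, and the cause was not tested. In LN229 Luc *TRA2A* KO, 1 became 0 without a filter and with only the groups compared, and was 0 to 1 with each library left out. In LN229 Luc *TRA2B* KO, 0 became 1 with the replicate block and 7 without both control replicates 1, and was 0 to 7 with each library left out, the 7 coming without Luc Control KO replicate 1. In LN229 TRA2B-OE *TRA2A* KO, 0 became 1 (*TIMELESS*) without both control replicates 1. In LN319 Luc *TRA2A* KO, 3 became 1 without a filter and 1 at a minimum of 5 TPM, which leaves *ATR* out, and was 1 to 3 with each library left out. In LN319 Luc *TRA2B* KO, 4 became 2 to 4 with each library left out, with 2 without Luc Control KO replicate 2 or Luc *TRA2B* KO replicate 1. In LN319 TRA2B-OE, 0 became 1 (*WEE1*) at a minimum of 5 TPM, with TPM as deposited and with quantile normalization, became 2 (*ATM* and *WEE1*) with the replicate block, and was 0 to 2 with each library left out. With only the groups compared, 2901 instead of 5004 genes were called in the A549 *TRA2A/B* DKD and 1743 instead of 2751 in LN319 Luc *TRA2A* KO, while the A549 *TRA2A* KD and *TRA2B* KD went from 35 to 1 and 55 to 6, those of NCI-H23 from 159 to 4 and 32 to 13, LN229 Luc *TRA2A* KO and *TRA2B* KO from 701 to 1 and 103 to 0, LN229 TRA2B-OE and TRA2B-OE *TRA2A* KO from 190 to 1 and 1119 to 192, and the same in LN319 from 830 to 40 and 543 to 0. With the replicate block, 1321 instead of 103 were called in LN229 Luc *TRA2B* KO, 1579 instead of 701 in LN229 Luc *TRA2A* KO, 330 instead of 190 in LN229 TRA2B-OE, 1900 instead of 1119 in LN229 TRA2B-OE *TRA2A* KO and 1943 instead of 830 in LN319 TRA2B-OE. Without a filter the effect of TRA2B-OE on *TRA2A* KO was called in 2 instead of 0 genes in LN229 and 17 instead of 4 in LN319. With each library left out, LN229 Luc *TRA2B* KO had 2 to 3818 genes called (3818 without Luc Control KO replicate 1, and 5060 without both control replicates 1), LN229 Luc *TRA2A* KO 35 to 754, LN229 TRA2B-OE 30 to 160, LN229 TRA2B-OE *TRA2A* KO 339 to 839, LN319 TRA2B-OE 123 to 1752, LN319 TRA2B-OE *TRA2A* KO 61 to 488, NCI-H23 *TRA2A* KD and *TRA2B* KD 76 to 138 and 9 to 33, A549 *TRA2A* KD and *TRA2B* KD 18 to 83 and 23 to 92, and the A549 departures from additivity 1456 to 3590 (2412 with all libraries). Over all genes, same-numbered libraries of different conditions showed little shared deviation in the median (correlation from -0.01 to 0.03 over the 4 lines), so the block is not read as pairing. In LN229, though, 3 of 30 same-numbered pairs exceeded 0.1, up to 0.212, against at most 0.115 between different numbers. Replicate 1 was also lowest there in every condition for *CLSPN*, *TIMELESS* and the S-phase sum. Whether same-numbered LN229 libraries share an effect was not tested. Depth could not be judged, since TPM keep none.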
